A study of Homo sapiens with 8 samples.

Results

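CPS1-IT1, LINC01485 and HULC are 3 long noncoding RNAs (lncRNAs) of the liver lineage, and their levels were followed in 2 human liver cancer cell lines treated with the BET bromodomain inhibitor JQ1. Each was found by its Ensembl gene ID in both expression tables, so that 3 loci of 15469 with values are described. The groups were HepG2 with JQ1, HepG2 with vehicle (DMSO), LM3 with JQ1 and LM3 with vehicle, with 2 libraries each and 8 in all. HepG2 and LM3 are established lines, and no dose of JQ1 or length of exposure is stated in the labels. Total RNA was depleted of ribosomal RNA and sequenced in read pairs, and each line has its own table of FPKM (fragments scaled to transcript length and sequencing depth). In such bulk RNA, fewer cells that express a locus and less RNA per cell cannot be told apart.

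JQ1 occupies the acetyl-lysine pocket of BET proteins and displaces them from acetylated chromatin at enhancers and promoters. Genes that hold a cell's identity often sit beside dense enhancer clusters, the super-enhancers named in the study's title, and are known to be sensitive to BET inhibitors. In hepatocytes these include genes of metabolism and of the transcription factors that maintain the lineage. CPS1, carbamoyl phosphate synthetase, carries out the first committed step of the urea cycle in hepatocyte mitochondria, and CPS1-IT1 is a transcript named for its place in a CPS1 intron. HULC was named for its high level in liver cancer. LINC01485 is a long intergenic noncoding RNA. The comparison asks what JQ1 did to these liver transcripts in each line and whether the lines differed.

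The 3 loci differ in how exactly their rows stand for the named RNA. All coordinates are on GRCh38. CPS1-IT1 (ENSG00000280837) is a single exon of 2306 bases at chr2:210617571-210619876 on the plus strand. It lies in the intron between exons 22 and 23 of a CPS1 transcript of 39 exons, 1029 bases after exon 22, and runs in the same direction as CPS1 (chr2:210477682-210679107). Unspliced CPS1 RNA therefore crosses the same bases, and its reads cannot be told apart from those of CPS1-IT1. CPS1, a coding gene, was not analysed here.

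LINC01485 (ENSG00000254211) spans 30513 bases at chr5:173778527-173809039 on the minus strand, and GENCODE release 29 gives it 5 transcripts of 372 to 614 bases with 2 to 4 exons. The row that carries the HULC name (ENSG00000285219) spans 858566 bases at chr6:8435568-9294133 on the plus strand. GENCODE 29 lists this ID as AL591485.1, a lncRNA from a bidirectional promoter with 113 transcripts, while the table of gene names lists it as HULC. HULC itself covers 1588 bases in RefSeq (chr6:8652269-8653856), which is 0.185% of the span, and 7 of the 113 transcripts have an exon there. The values of this row thus cannot be read as the level of HULC alone, and it is called the HULC row here.

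Promoter sequences were read from RefSeq (GRCh38.p14) as windows of 300 bases around a start site. LINC01485 had 1 such window and CPS1, the host of CPS1-IT1, had 3. No window was found for CPS1-IT1 itself or for HULC, so the CPS1 windows belong to the host gene, whose level was not analysed. The windows are shown because LINC01485 and CPS1-IT1 were both lower with JQ1 in HepG2, and a link between them and that response was not tested. The LINC01485 window is chr5:173790893-173791192 on the minus strand, and its start site lies 18097 bases inside the upstream end of the locus. The CPS1 windows with a start at the beginning of the gene and further in are chr2:210477435-210477734 and chr2:210519468-210519767, both on the plus strand. Capitals mark CACGTG, the palindromic E-box, and CCAAT, the CCAAT box.
LINC01485: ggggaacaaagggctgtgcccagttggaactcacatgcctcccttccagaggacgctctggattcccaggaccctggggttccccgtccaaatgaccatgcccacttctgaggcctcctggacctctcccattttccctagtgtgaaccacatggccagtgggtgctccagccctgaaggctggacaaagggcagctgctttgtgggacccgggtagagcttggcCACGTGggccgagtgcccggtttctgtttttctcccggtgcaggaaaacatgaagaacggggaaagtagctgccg
CPS1, first window: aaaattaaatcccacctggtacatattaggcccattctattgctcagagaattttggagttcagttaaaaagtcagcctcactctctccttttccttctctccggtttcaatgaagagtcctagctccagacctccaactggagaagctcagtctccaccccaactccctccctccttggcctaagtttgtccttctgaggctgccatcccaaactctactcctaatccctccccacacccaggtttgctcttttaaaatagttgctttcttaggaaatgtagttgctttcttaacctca
CPS1, second window: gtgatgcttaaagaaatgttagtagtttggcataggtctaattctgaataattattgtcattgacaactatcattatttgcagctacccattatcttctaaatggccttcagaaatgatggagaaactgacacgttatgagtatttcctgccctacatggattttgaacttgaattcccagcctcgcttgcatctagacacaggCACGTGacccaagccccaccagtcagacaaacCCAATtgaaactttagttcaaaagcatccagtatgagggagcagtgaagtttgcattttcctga

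The E-box was found 25 bases before the LINC01485 start and 46 bases before the second CPS1 start, and a CCAAT box 14 bases before that CPS1 start. CACGTG is in 7.26% and CCAAT in 34.6% of the 35116 promoter windows of this length, counted on both strands. No match was found in these windows, or in the remaining CPS1 window (chr2:210593105-210593404), for TATAAA (11.5% of windows), TGACG, part of a CREB site (24.6%), GTTAAT, part of an HNF1 site (6.88%), AGGTCA, part of a nuclear receptor site (13.8%), or TGTTTAC, the FOXA core (3.42%). The first and last CPS1 windows held none of the motifs searched. These matches describe letters and not bound sites.

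Across the series, the FPKM of all loci summed to between 29370 and 35740 per library, and 11230 to 12332 loci had a value above 0. FPKM of single-exon loci lay on steps of whole fragments, from which a depth of about 37000000 to 48500000 fragments per library was inferred. Replicates correlated across the tested loci with r of 0.961 to 0.979. The share of FPKM from ribosomal RNA and mitochondrial loci was 17.07% and 18.03% in HepG2 with JQ1, against 15.27% and 15.81% with vehicle. In LM3 it was 19.76% and 21.52% with JQ1, against 17.93% and 18.71% with vehicle. The labels do not say that replicates came from separate cultures, so the p-values reflect library-to-library spread alone, some or all of which may be technical.

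CPS1-IT1 had the highest FPKM of the 3 loci in vehicle cells of both lines and was lower with JQ1 in both. In HepG2 it had 1.33 and 1.22 FPKM with JQ1, against 6.84 and 6.79 FPKM with vehicle. The JQ1 libraries lay far below the vehicle libraries and each pair was tight, with means of 1.27 ± 0.0778 and 6.81 ± 0.0354 FPKM (SD, n = 2 each). The JQ1 mean was 18.7% of the vehicle mean, a level 5.35-fold lower. The log2 fold change, taken on log2(FPKM + 0.5) and so smaller than the true ratio for weakly expressed loci, was -2.04 with an SE of 0.0816 (95% interval -2.26 to -1.83, adjusted p = 0.00262, two-sided limma test with Benjamini-Hochberg adjustment). This was the most negative fold change of the 5906 loci tested in HepG2, of which 14.2% were called lower and 10.8% higher at an adjusted p under 0.05. The median over all tested loci was -0.00558.

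In LM3 CPS1-IT1 had 0.41 and 0.26 FPKM with JQ1, against 1.34 and 1.41 FPKM with vehicle. Again the groups did not overlap, and the means were 0.335 ± 0.106 and 1.38 ± 0.0495 FPKM (SD, n = 2 each). The JQ1 mean was 24.4% of the vehicle mean, a level 4.1-fold lower. The log2 fold change was -1.17 with an SE of 0.137 (95% interval -1.54 to -0.807, limma adjusted p = 0.0119), at rank 175 from the most negative of 6474 loci tested. In LM3 15.4% of loci were called lower and 7.92% higher, and the median was -0.0837. That split, 513 higher and 998 lower, was 700 and 770 after centring the libraries on their medians and 715 and 732 after quantile normalization, and CPS1-IT1 was called lower under both. Leaving out any one LM3 library gave fold changes of -1.30 to -1.04 with adjusted p between 0.0618 and 0.11, but then 0 of the 6474 loci were called in limma (1605 to 2366 at an unadjusted p under 0.05), so the lost call is not particular to CPS1-IT1. In HepG2 the call was lost without JQ1 replicate 1 (-2.09, adjusted p = 0.0777) or without JQ1 replicate 2 (-2.00, adjusted p = 0.0788), and there too 0 loci were called (limma, 1789 and 1714 at an unadjusted p under 0.05). When a group was left with 1 library, that library was assumed to vary like the others.

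CPS1-IT1 has 1 exon, so its values can be turned into approximate fragments. In HepG2 they stand for about 143 and 128 fragments with JQ1, against about 703 and 674 with vehicle. In LM3 they stand for about 33 and 26 fragments with JQ1, against about 126 and 131 with vehicle. The exact 95% Poisson intervals of the LM3 libraries were 0.28 to 0.571 and 0.167 to 0.375 FPKM with JQ1, against 1.11 to 1.59 and 1.18 to 1.67 FPKM with vehicle, so the groups were apart beyond counting error, which is all these intervals cover. Sequenced fragments without molecular identifiers are not independent molecules.

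**Figure D1:**
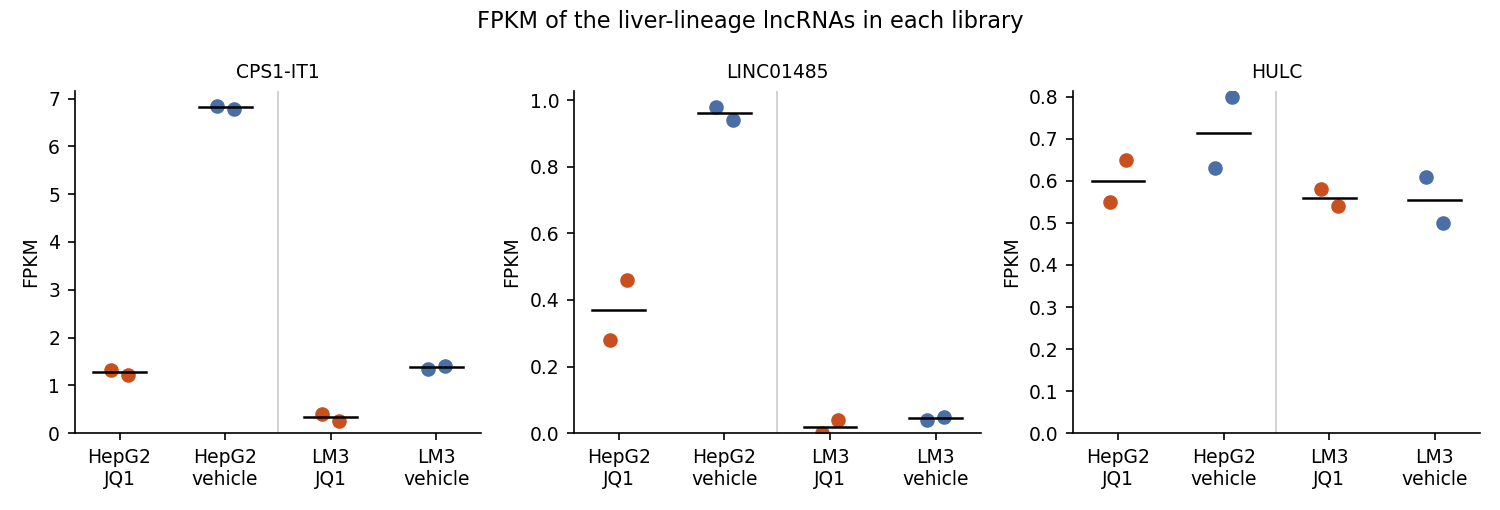
FPKM of CPS1-IT1, LINC01485 and the HULC row (vertical axes, linear, separate scale for each) in every library, as points, with JQ1 left of vehicle in each line and a bar at the mean of 2 libraries. CPS1-IT1 lies lower with JQ1 in both lines, LINC01485 lies lower in HepG2 and near 0 in LM3, and the HULC row overlaps between JQ1 and vehicle in both lines.

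LINC01485 was expressed in HepG2 and close to the detection limit in LM3, and it was lower with JQ1 in HepG2. There it had 0.28 and 0.46 FPKM with JQ1, against 0.98 and 0.94 FPKM with vehicle. The groups did not overlap, and the JQ1 libraries differed more from each other than the vehicle libraries did, with means of 0.37 ± 0.127 and 0.96 ± 0.0283 FPKM (SD, n = 2 each). The JQ1 mean was 38.5% of the vehicle mean. The log2 fold change was -0.755 with an SE of 0.138 (95% interval -1.12 to -0.391, limma adjusted p = 0.0242) and ranked 383 from the most negative. Leaving out any of the 4 libraries gave -0.904 to -0.605. The call was lost each time, also without either vehicle library, where CPS1-IT1 kept its own. Testing all loci without a filter on low values gave a limma adjusted p of 0.0573 for the same fold change, above the threshold.

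In LM3 LINC01485 had 0 and 0.04 FPKM with JQ1, against 0.04 and 0.05 FPKM with vehicle. The locus was under the filter of a mean of 0.5 FPKM over the line's libraries and was not tested. With its longest GENCODE 29 transcript, 1 fragment is worth 0.0405 to 0.0541 FPKM in LM3, so each value above 0 there stands for about 1 fragment. A response to JQ1 was therefore not detectable in LM3 at this depth. In HepG2 the same length gives about 7.12 to 11.4 fragments with JQ1, against 21.8 to 23.7 with vehicle. The shortest GENCODE 29 transcript gives 3.84 to 6.17 fragments with JQ1, against 11.6 to 12.6 with vehicle. The row has a longer span than in GENCODE 29, so these fragment numbers are approximate.

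The HULC row did not pass the test in either line. In HepG2 it had 0.55 and 0.65 FPKM with JQ1, against 0.63 and 0.80 FPKM with vehicle. The groups overlapped, and the log2 fold change was -0.14 (95% interval -0.46 to 0.18, limma adjusted p = 0.439). In LM3 the row had 0.58 and 0.54 FPKM with JQ1, against 0.61 and 0.50 FPKM with vehicle. The JQ1 libraries lay between the vehicle libraries, with a log2 fold change of 0.0085 (95% interval -0.35 to 0.37, limma adjusted p = 0.966). Both intervals include 0 and describe the whole locus and not HULC alone. One other locus overlaps the row, LXLOC_046226 (chr6:8102711-9194766, plus strand), which may share its reads. It had 0.19 and 0.04 FPKM with JQ1, against 0 and 0.11 FPKM with vehicle in HepG2, and 0.16 and 0.20 FPKM with JQ1, against 0.09 and 0.31 FPKM with vehicle in LM3, and was not tested.

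In vehicle cells all 3 had a lower mean in LM3 than in HepG2. The LINC01485 mean in LM3, about 1 fragment per library, was 4.69% of that in HepG2. CPS1-IT1 in LM3 vehicle cells was at 20.2% of its HepG2 vehicle level, and the HULC row at 77.6%. The order of levels in vehicle cells was CPS1-IT1, LINC01485, HULC row in HepG2 and CPS1-IT1, HULC row, LINC01485 in LM3, with no overlap between neighbours in either order. FPKM is per length, but the lengths used for LINC01485 and the HULC row are unknown, so the order of the loci is approximate. The tables of the 2 lines may have been normalized separately, and no test was made between them.

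Whether JQ1 moved CPS1-IT1 differently in the lines was tested in 1 limma fit over the 8 libraries. The response in LM3 minus the response in HepG2 was 0.871 with an SE of 0.147 (95% interval 0.519 to 1.22) on the log2(FPKM + 0.5) scale, which is a smaller fall in LM3. Its unadjusted p was 0.000762 and its adjusted p 0.118, so it did not pass the threshold, which 0.218% of 5035 loci did. With a pseudocount of 1 FPKM the difference was 0.948 and passed (adjusted p = 0.0249), and with 0.1 FPKM it was 0.548 (adjusted p = 0.456). The size of the difference thus moved with the pseudocount, and the shares of vehicle level left with JQ1, 24.4% in LM3 and 18.7% in HepG2, lie closer together than the log2 values do. The difference for the HULC row was 0.15 (95% interval -0.26 to 0.56, adjusted p = 0.763). LINC01485 could not be entered, being under the filter in LM3.

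**Figure D2:**
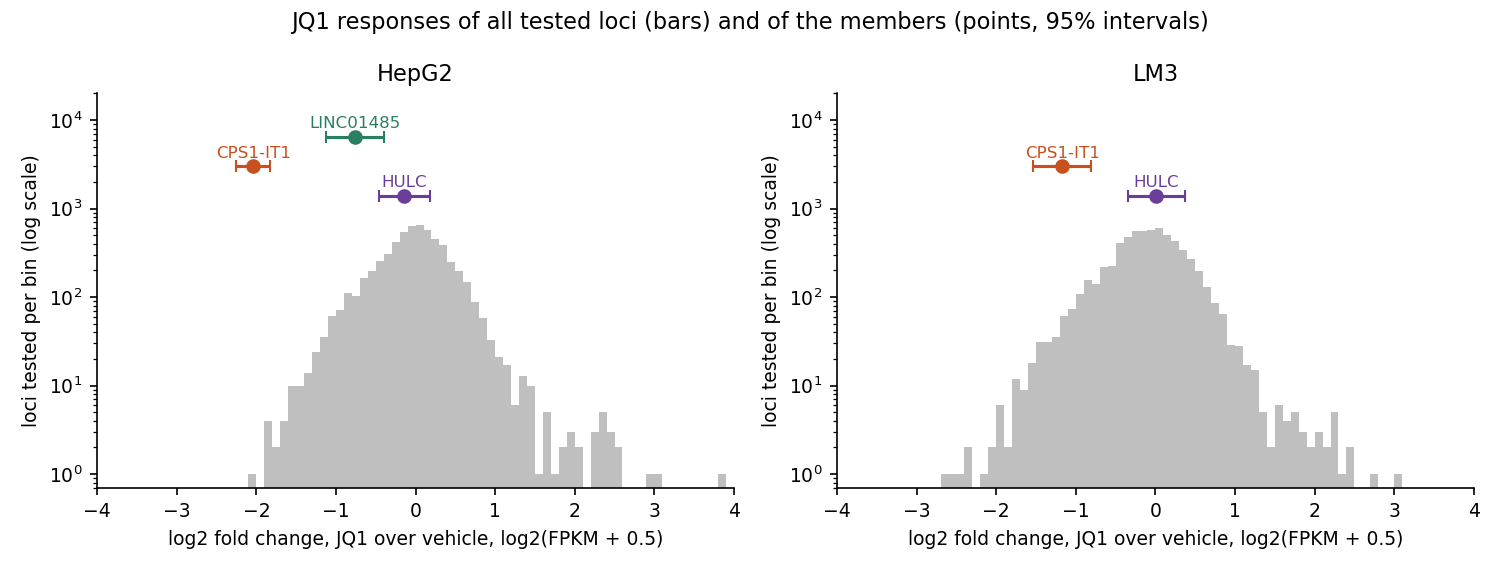
Number of tested loci (grey bars, log scale) at each log2 fold change, JQ1 over vehicle, on log2(FPKM + 0.5), in HepG2 and LM3, with the fold changes of the described loci as points and their 95% intervals as bars, drawn above the histogram at heights with no meaning. CPS1-IT1 lies at the far left in HepG2 (-2.04) and within the left side in LM3 (-1.17), while the HULC row lies near 0 in both.

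The stretch of chromosome around each locus was then described, over all loci with values within 500 kb. Near CPS1-IT1 there were 2, of which 1 was tested. LXLOC_031176, a locus named by the authors at chr2:210684510-210685886 on the plus strand, begins 5403 bases beyond the end of CPS1. In HepG2 it had 0.51 and 0.79 FPKM with JQ1, against 2.45 and 1.95 FPKM with vehicle, and the groups did not overlap. Its log2 fold change was -1.24 (limma adjusted p = 0.0141). In LM3 it had 0.17 and 0.13 FPKM with JQ1, against 0.46 and 0.41 FPKM with vehicle, too low for the test. CPS1-IT1 and LXLOC_031176 had a Pearson r of 0.972 over the 8 libraries, and CPS1-IT1 reached 0.993 and 0.972 with LXLOC_046023 and LINC01484 on chromosome 5, so the value is not particular to neighbours. Transcription past the end of CPS1 and a separate transcript cannot be told apart in these values.

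Near LINC01485 there were 8 loci with values, 2 of them tested in HepG2. LINC01484 (chr5:173707614-173746279, minus strand), a further intergenic lncRNA, lies 32248 bases from LINC01485 on the same strand. In HepG2 it had 0.31 and 0.31 FPKM with JQ1, against 1.10 and 0.96 FPKM with vehicle, a log2 fold change of -0.916 (limma adjusted p = 0.0103). In LM3 it had 0.07 and 0.08 FPKM with JQ1, against 0.20 and 0.18 FPKM with vehicle, and was not tested. The JQ1 libraries of both lines were below the vehicle libraries, and LINC01484 stayed above LINC01485 in every LM3 library.

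LXLOC_046023 (chr5:173707274-173746279, minus strand) covers the interval of LINC01484 and may share its reads. In HepG2 it had 0.71 and 0.77 FPKM with JQ1, against 3.11 and 3.26 FPKM with vehicle (log2 fold change -1.57, limma adjusted p = 0.00453). In LM3 it had 0.12 and 0.14 FPKM with JQ1, against 0.87 and 0.90 FPKM with vehicle (-1.14, limma adjusted p = 0.0134). This neighbour of LINC01485 thus fell in both lines. The other 6 loci in the window had at most 0.13 FPKM in any library and were not tested. Over the 8 libraries LINC01485 correlated with LINC01484 at r = 0.96 and with LXLOC_046023 at r = 0.871, and with CPS1-IT1 on another chromosome at r = 0.889. These r values rest on 4 groups of 2 libraries and share the difference between lines. The second locus near the HULC row, ENSG00000232234, had at most 0.07 FPKM and was not tested.

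**Figure D3:**
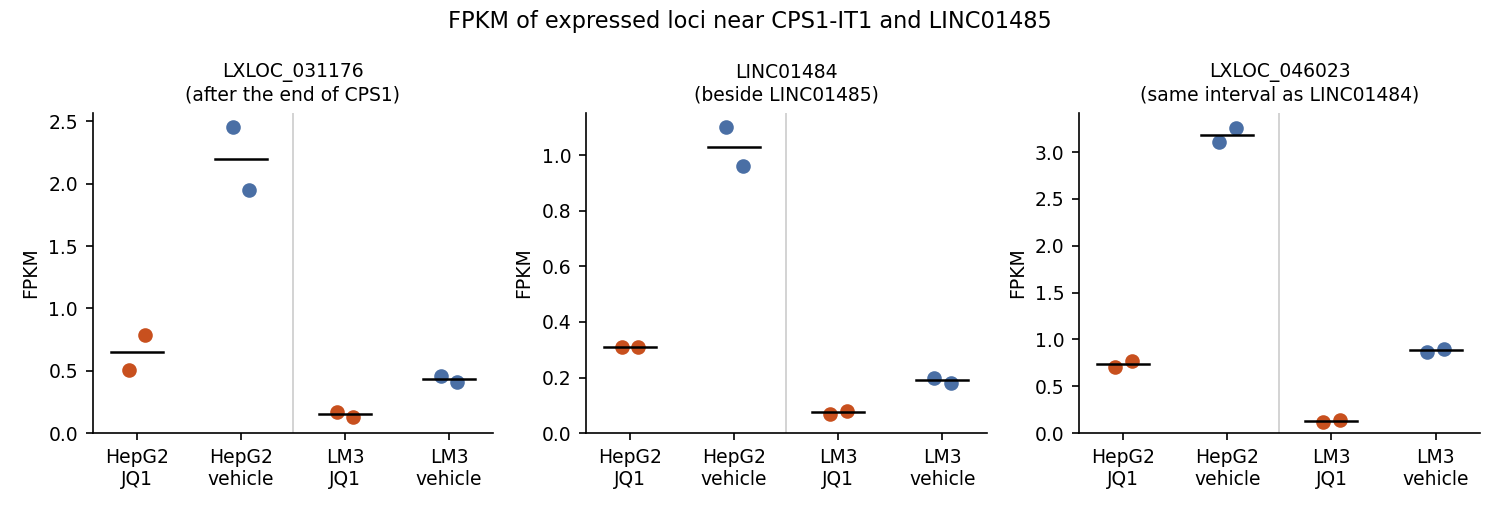
FPKM of LXLOC_031176, LINC01484 and LXLOC_046023 (vertical axes, linear, separate scale for each) in every library, as points, with JQ1 left of vehicle in each line and a bar at the mean of 2 libraries. The JQ1 libraries lie below the vehicle libraries for all 3 loci in both lines.

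The 3 loci were set within a chosen list of 29 lncRNAs, called hepatocyte lncRNAs here, of which 17 had values. Whether each member, DIO3OS included, is particular to hepatocytes was not tested. In HepG2 3 passed the filter, of which CPS1-IT1 and LINC01485 were called lower, none was called higher and the HULC row was not called. In LM3 3 passed, of which CPS1-IT1 and DIO3OS were called lower and the HULC row was not. Medians over those tested were -0.755 in HepG2 and -1.04 in LM3, beside -0.00558 and -0.0837 over all loci tested, but so few members passed the filter that these describe single loci. Without the filter, over the members with a value above 0, the medians were -0.141 in HepG2 and -0.0753 in LM3, beside -0.013 and -0.042 over all loci. DIO3OS, transcribed from the locus of the thyroid hormone deiodinase DIO3, had 2.03 and 1.75 FPKM with JQ1, against 4.10 and 4.75 FPKM with vehicle in LM3 (log2 fold change -1.04, limma adjusted p = 0.0117). In HepG2 it had 0.27 and 0.34 FPKM with JQ1, against 0.41 and 0.53 FPKM with vehicle, and was not tested. The direction was the same in both lines, and DIO3OS was far higher in LM3.

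Over the 17 with values, both JQ1 libraries were below both vehicle libraries for 9 in HepG2, against a background of 26.3% of 14354 loci above 0, and for 4 of 16 above 0 in LM3, against 30.8% of 14050 loci. The LM3 count is near its background. The 9 in HepG2 include CPS1-IT1 and LINC01485, already described as lower. Some rest on values near 0, such as HNF4A-AS1 with 0 and 0 FPKM with JQ1, against 0.04 and 0.04 FPKM with vehicle. Both JQ1 libraries were above both vehicle libraries for 2 members in HepG2 and 2 in LM3. Among the 9 lower in HepG2, LINC00261, which lies beside the gene of the hepatic factor FOXA2, had 0.05 and 0.08 FPKM with JQ1, against 0.48 and 0.64 FPKM with vehicle. LINC02428 had 0.18 and 0.24 FPKM with JQ1, against 0.49 and 0.63 FPKM with vehicle in HepG2, while in LM3 it had 0.31 and 0.45 FPKM with JQ1, against 0.63 and 0.50 FPKM with vehicle. LINC01554 lay in the other direction, with 0.30 and 0.31 FPKM with JQ1, against 0.21 and 0.21 FPKM with vehicle in HepG2. In LM3 it had 0.25 and 0.18 FPKM with JQ1, against 0.15 and 0.14 FPKM with vehicle. The other members above vehicle without overlap were LINC00844 in HepG2 and LINC02027 in LM3. None of these LINC loci passed the filter, and they were chosen after their values were seen. Of the hepatocyte markers, FAM99A, FAM99B and LINC01093 were not among the 17 with values. HNF4A-AS1, beside the gene of the hepatic transcription factor HNF4A, was at most 0.04 FPKM in any library.

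**Figure D4:**
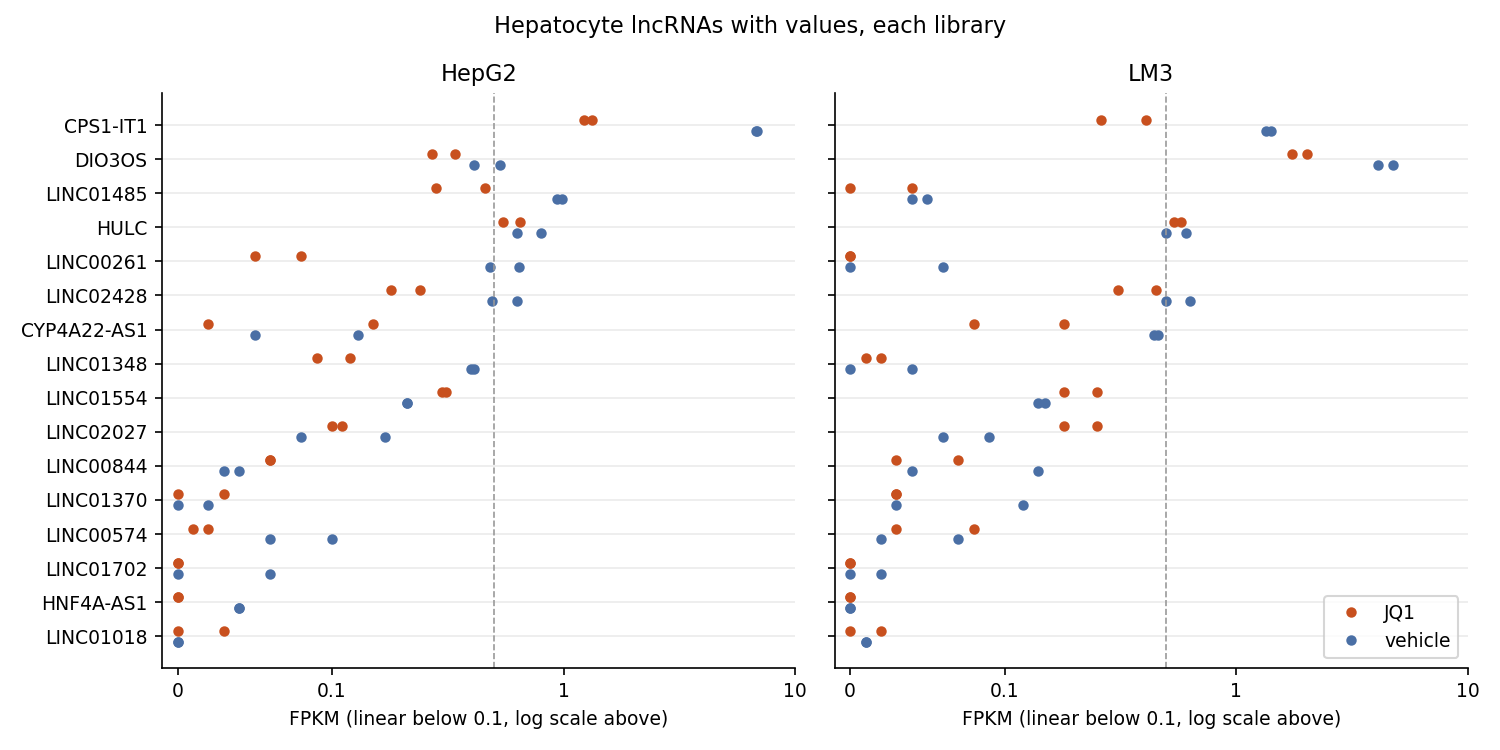
FPKM of 16 of the 17 hepatocyte lncRNAs with values (rows) in every library of HepG2 and LM3, with JQ1 above vehicle in each row, on an axis that is linear below 0.1 FPKM and logarithmic above it, and a dashed line at the filter of 0.5 FPKM. Few lncRNAs reach the filter, and CPS1-IT1 has the highest vehicle level in HepG2, with its JQ1 libraries well to the left.

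A list of 12 lncRNAs beside genes of transcription factors, most of them hepatic, had values throughout. Of those tested, 1 of 1 was called lower in HepG2 and 2 of 2 in LM3, and none was called higher. The shares called lower over all loci tested were 14.2% and 15.4%. Counts this small say nothing about the list. NR2F1-AS1, beside the gene of the nuclear receptor NR2F1, had 4.19 and 4.89 FPKM with JQ1, against 8.81 and 7.19 FPKM with vehicle in HepG2 (log2 fold change -0.751, limma adjusted p = 0.024). In LM3 it had 1.93 and 2.34 FPKM with JQ1, against 4.70 and 4.01 FPKM with vehicle (-0.882, limma adjusted p = 0.0186). NR2F2-AS1, beside the related receptor gene NR2F2, had 0.53 and 0.49 FPKM with JQ1, against 1.15 and 1.04 FPKM with vehicle in LM3 (-0.659, limma adjusted p = 0.0234). Without regard to the filter, JQ1 libraries lay below vehicle libraries for 8 of 12 in HepG2, against 26.3% of all loci above 0, and for 5 of 11 above 0 in LM3, against 30.8%.

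Markers of other cell types were read beside these results. Of 19 lncRNAs known from blood, vessel, muscle, stroma or nerve, 14 had values and 3 were tested. Their FPKM summed to 6.93 to 7.07 with JQ1, against 12.83 to 13.31 with vehicle in HepG2, and to 10.9 to 12.49 with JQ1, against 12.63 to 13.64 with vehicle in LM3. Without FENDRR, left out after the values were seen, the other 13 summed to 4.22 and 4.19 FPKM with JQ1, against 4.54 and 4.17 FPKM with vehicle in HepG2, and to 9.88 and 11.44 FPKM with JQ1, against 9.28 and 10.2 FPKM with vehicle in LM3. The groups then overlapped in both lines, so the lower sums came from FENDRR. Most of what was left in LM3 was MIR503HG, with 7.57 and 9.13 FPKM with JQ1, against 7.29 and 7.22 FPKM with vehicle. FENDRR, which lies beside FOXF1 and is known from mouse mesoderm, was called lower in both lines, while MIR503HG (log2 fold change 0.0982 in HepG2 and 0.185 in LM3) and LINC00926 (-0.0963 and 0.0334) were not called. Medians over the 3 tested were -0.0963 in HepG2 and 0.0334 in LM3. Without regard to the filter, both JQ1 libraries were below both vehicle libraries for 5 of 14 in HepG2. The background was 26.3% of all loci above 0. In LM3 this held for 2 of 13 above 0, against 30.8%. FENDRR had 2.71 and 2.88 FPKM with JQ1, against 8.29 and 9.14 FPKM with vehicle in HepG2 (log2 fold change -1.48, limma adjusted p = 0.00513). In LM3 it had 1.02 and 1.05 FPKM with JQ1, against 3.35 and 3.44 FPKM with vehicle (-1.34, limma adjusted p = 0.00565). The summed level of the 17 hepatocyte lncRNAs was 3.41 to 3.82 FPKM with JQ1, against 11.1 to 11.5 FPKM with vehicle in HepG2, and 3.85 to 4.04 FPKM with JQ1, against 7.56 to 8.45 FPKM with vehicle in LM3. Most of the fall in that hepatocyte sum came from CPS1-IT1 in HepG2 (mean 1.27 FPKM with JQ1, against 6.81 FPKM with vehicle). In LM3 most came from DIO3OS (1.89 against 4.42 FPKM) and CPS1-IT1 (0.335 against 1.38 FPKM). These loci therefore weigh most in the hepatocyte sums, and sums without them were not taken. Other members moved too. In HepG2 9 of the 17, CPS1-IT1 among them, had both JQ1 libraries below both vehicle libraries, and 2 had them above. In LM3 this held for 4 and 2 of the 16 above 0. The part of cell composition in the result was not tested.

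The loci most like each of the 3 over the 8 libraries were found among 1111 loci with a symbol, by the root mean squared distance on log2(FPKM + 0.5) after centring each locus. For CPS1-IT1 the nearest were FENDRR (distance 0.288, r = 0.982), MIR99AHG (0.409, r = 0.936), DNAH17-AS1 (0.456, r = 0.918), HISLA (0.494, r = 0.925) and CYP4F26P (0.507, r = 0.975). MIR99AHG, the host of a microRNA cluster, had 7.08 and 6.85 FPKM with JQ1, against 16.5 and 14.7 FPKM with vehicle in HepG2, and 1.57 and 2.47 FPKM with JQ1, against 6.25 and 6.77 FPKM with vehicle in LM3. A likeness in level and response over these libraries is what the distance selects. In LM3, FENDRR and MIR99AHG were called lower, DNAH17-AS1 (limma adjusted p = 0.132) and CYP4F26P (limma adjusted p = 0.0969) were not called, and HISLA was under the filter.

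For LINC01485 the nearest were LNC-LBCS (distance 0.0914, r = 0.991), LINC02958 (0.0925, r = 0.996), MAGI2-AS3 (0.117, r = 0.982), EDIL3-DT (0.124, r = 0.979) and BOLA3-DT (0.139, r = 0.975). LINC02958 had 0.25 and 0.41 FPKM with JQ1, against 1.12 and 1.06 FPKM with vehicle in HepG2, and in LM3 0 and 0.04 FPKM with JQ1, against 0 and 0 FPKM with vehicle. For the HULC row they were EBLN3P (0.0796, r = 0.778), ZBTB11-AS1 (0.0863, r = 0.744), SBNO1-AS1 (0.0922, r = 0.651), CDK13-DT (0.0939, r = 0.742) and SPEN-AS1 (0.0951, r = 0.715), none of which was called where it was tested. The smaller distances of LINC01485 and the HULC row go with their smaller spread over the libraries, so distances are not comparable between the 3 lists.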

How the data were processed

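The authors deposited 1 table of FPKM per cell line, per the file headers, with values rounded to 2 decimals. The submitters' processing notes name the tool Bowtie (0.12.2) and, as builds, hg19 and mm8, without a role. Coordinates match GRCh38: of the 14860 Ensembl IDs that GENCODE 29 also holds, 100.0% had the same chromosome, 85.7% the same start and 86.0% the same end. How fragments were counted, on which annotation and with which strand setting is not given in the sources used. Each table lists 23161 loci, of which 7692 had no values.

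JQ1 was compared with vehicle within each line in limma 3.58.1 (R 4.3.3) on log2(FPKM + 0.5), with trend and robust moderation. Loci whose mean over the line's 4 libraries was under 0.5 FPKM were left out. Tests were two-sided, adjusted by Benjamini-Hochberg over the loci tested, with a threshold of 0.05. The difference between lines was fitted over 8 libraries for loci that passed in both. The steps were tested on simulated data. Tables and plots were made with Python 3.11.15, pandas 2.3.3, NumPy 2.4.6, SciPy 1.17.1 and matplotlib 3.10.9.

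Depth was inferred from 1807 single-exon loci: over the 534 to 577 used per library, 88.2% to 96.3% of values lay within 0.1 of a whole number of fragments, where evenly spread values give 20%, with 71 to 115 bases taken off the length. Lengths of loci with several exons are unknown, so no count test was made.

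The 3 loci, the lists and the tests were chosen with earlier results of these data known. Named were the 3 loci, called members of the lists or those at 0.5 FPKM or more, called or overlapping loci within 500 kb, and the 5 loci most like each. Alternatives were the pseudocount, the filter, centring, quantile normalization, rescaling without ribosomal RNA and mitochondrial loci, limma without trend or robust fitting, a replicate block and leaving out each library. The values of 1 listed lncRNA are not reported here, though it counts in the list totals.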

Additional observations from a re-analysis of the deposited data

How the results depend on the processing

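CPS1-IT1 in HepG2 stayed called lower under the 9 alternatives that kept all libraries (-2.33 to -1.78), and in LM3 under the 8 that tested it (-1.78 to -0.83); at a mean of at least 1 FPKM it was not tested in LM3, nor were LINC01485 and the HULC row in either line. Leaving out 1 library gave CPS1-IT1 changes of -2.09 to -2.00 in HepG2 and -1.30 to -1.04 in LM3, and LINC01485 changes of -0.904 to -0.605 in HepG2. Without a filter LINC01485 kept -0.755 at an adjusted p of 0.0573, over 14354 loci. The CPS1-IT1 difference between lines was 0.948 with a pseudocount of 1 FPKM and 0.741 to 1.00 with 1 library left out. The HULC row in LM3 turned to -0.067 without vehicle replicate 2 and to -0.019 without JQ1 replicate 1, over a range of -0.067 to 0.084. The causes were not tested.

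The 1480 loci called in HepG2 became 852 without a filter, 975 at a mean of at least 1 FPKM and 0 to 519 with 1 library left out (limma, 1714 to 2062 at an unadjusted p under 0.05). The 1511 in LM3 became 857 without a filter and 0 with any 1 library left out (1605 to 2366 unadjusted). The 11 loci called for the difference (1 higher, 10 lower) became 7 with a pseudocount of 0.1, 19 with 1, 94 without a filter, 7 at a mean of at least 1 FPKM, 20 after centring (6 higher, 14 lower), 2 after quantile normalization, 16 without ribosomal RNA and mitochondrial loci (6 higher, 10 lower), and 0 to 3 with 1 library left out.

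Replicate numbers are shared in the labels, and same-numbered libraries deviated together at r = -0.0345 in HepG2 and 0.135 in LM3. These values cannot show whether same-numbered libraries were prepared together. Pairing was left out of the main fit. With a replicate block, limma called 1453 loci in HepG2, 1215 in LM3 and 0 for the difference (505 at an unadjusted p under 0.05); CPS1-IT1 had adjusted p of 0.000344 in HepG2 and 0.02 in LM3, and LINC01485 0.0154 in HepG2. Depth limits LINC01485 in LM3, where values stand for about 1 fragment.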
